A study of Mus musculus with 6 samples.

Results

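The genes described here belong to BMP, activin and Wnt signalling and were measured in the mouse hippocampus. They comprise the secreted ligands Bmp6, Inhbb and Wnt9a, the secreted antagonists Grem1 and Sfrp1, and the transcription factor Smad3. They were selected by gene symbol and are 6 of the 475 genes in the authors' table of differences between CI-994 and vehicle. The groups were 3 C57Bl/6 mice given daily injections of CI-994 (30 mg/kg), an inhibitor of histone deacetylases, and 3 C57Bl/6 mice given injections of its vehicle (VEH). All 6 mice were 4 months old, had learned contextual fear, had recalled that memory by exposure to the context and had then gone through spaced extinction training. Both groups therefore share the training, and no untrained mice were analysed here. RNA came from the whole hippocampus of one hemisphere, taken 1 h after extinction training ended, and the sex of the mice is not given in the labels.

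BMPs and activins are dimeric ligands of the TGF-beta superfamily, which bind paired serine/threonine kinase receptors and act through Smad proteins that enter the nucleus. Wnts bind Frizzled receptors, and their best known branch stabilises beta-catenin. Both kinds of ligand are held in check outside the cell by secreted antagonists. In the adult hippocampus BMP signalling is known to keep neural stem cells of the dentate gyrus quiescent, while Wnt signalling is known to favour the birth of new granule neurons.

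The genes lie on 6 different autosomes, each written here in mm9 coordinates as the table gives them. Bmp6 spans chr13:38437584-38591597, Inhbb chr1:121312041-121318825 and Wnt9a chr11:59120431-59147054. Grem1 spans chr2:113588831-113598805, Sfrp1 chr8:24521973-24560104 and Smad3 chr9:63494573-63605801. All 6 are protein coding in the newer GENCODE M21 annotation, with between 1 transcript, for Inhbb, Grem1 and Sfrp1, and 5 transcripts, for Smad3. In that annotation Bmp6 overlaps the antisense gene 4930579J19Rik and, at its end, Txndc5, which is coded on the opposite strand. No source used here says whether reads were counted by strand, so reads within these overlaps cannot be assigned to Bmp6 or to its partners. The other 5 overlap no annotated gene.

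RefSeq promoter windows of 300 bases (250 before and 50 after the start, build GRCm38.p6) were matched by symbol for 5 of the 6 genes. Sfrp1 was not matched. The windows of Grem1 and Wnt9a are shown because they hold the letters GGCGCC, a GC-rich element bound by Smads of the BMP branch, and that of Bmp6 is set beside them as a window without these letters. The windows of Inhbb and Smad3 hold none either. Grem1, Wnt9a and Smad3 were lower in CI-994, and Bmp6 and Inhbb were higher. With windows for only 5 genes, nothing is read from the element about direction. Capitals mark GGCGCC, and each run reads 5′ to 3′ on the strand of its gene.
Grem1: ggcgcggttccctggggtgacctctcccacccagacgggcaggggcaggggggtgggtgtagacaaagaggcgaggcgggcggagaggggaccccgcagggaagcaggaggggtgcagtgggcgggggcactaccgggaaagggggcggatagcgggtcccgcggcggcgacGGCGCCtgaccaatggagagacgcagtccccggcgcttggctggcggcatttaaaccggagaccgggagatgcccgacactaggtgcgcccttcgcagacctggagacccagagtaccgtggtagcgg
Wnt9a: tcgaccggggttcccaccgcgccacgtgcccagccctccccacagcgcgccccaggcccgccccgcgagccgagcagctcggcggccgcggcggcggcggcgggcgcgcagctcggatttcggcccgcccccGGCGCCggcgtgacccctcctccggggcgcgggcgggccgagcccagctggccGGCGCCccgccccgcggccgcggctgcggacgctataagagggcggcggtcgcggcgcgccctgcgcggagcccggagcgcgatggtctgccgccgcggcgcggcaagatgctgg
Bmp6: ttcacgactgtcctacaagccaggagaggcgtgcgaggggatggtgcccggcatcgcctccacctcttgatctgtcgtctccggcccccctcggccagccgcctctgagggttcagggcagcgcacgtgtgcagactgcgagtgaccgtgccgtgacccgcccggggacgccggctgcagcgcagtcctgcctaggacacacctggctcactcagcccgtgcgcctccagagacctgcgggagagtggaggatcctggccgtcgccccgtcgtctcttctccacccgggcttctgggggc

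The windows are at chr2:113758599-113758898 on the minus strand for Grem1, chr11:59306680-59306979 on the plus strand for Wnt9a and chr13:38345466-38345765 on the plus strand for Bmp6, all in GRCm38.p6. GGCGCC reads the same on both strands, and it begins 78 bases before the start of Grem1 and 118 and 65 bases before that of Wnt9a. It was found in 2 of the 5 windows, in 11.9% of all 32851 windows and in 35.2% of the 7071 windows with at least 23 CG pairs, the lowest number in these 5 genes, so that its share here is near that of other windows rich in CG. The palindrome GTCTAGAC, a Smad element, and ATCAAAG, a Tcf/Lef element of Wnt targets whose other strand reads CTTTGAT, were each found in 0 of the 5 windows. They were in 0.213% and 3.73% of all windows, and in 0.198% and 1.19% of the 7071 windows rich in CG. With 5 windows nothing is read from their absence. The 5 windows were rich in CG, with 23 pairs in Inhbb, 25 in Smad3, 27 in Bmp6, 28 in Grem1 and 58 in Wnt9a, where the median of all windows was 7. Only the letters were searched, and nothing was measured at these promoters.

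Of the 6 genes, 3 were higher and 3 lower in CI-994 than in VEH hippocampi. In the table as a whole 41.9% of genes were higher and 58.1% lower. The table lists genes with an authors' p-value under 0.05, so a p under that limit came with the choice of the genes and is no finding about them. Each value below is the authors' single value per group in arbitrary units, without a spread between mice. Directions follow the labels of these group values; the header of the authors' log2 column names the opposite direction for every gene, and if it were right all directions below would turn around. Since it is not known whether the units are per length, levels are compared between groups, except where genes are matched by level or summed below. If the units are not per length, those matches and sums also carry differences in gene length. Within bulk tissue, fewer cells of a type and less RNA per cell cannot be told apart.

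Both ligands of the TGF-beta superfamily were higher in CI-994. Bmp6, a BMP known in the liver as the inducer of the iron hormone hepcidin, was at 5.29 units in CI-994 hippocampi and at 3.03 units in VEH hippocampi, a 1.75-fold difference (log2 ratio 0.80; p = 0.0173 in the authors' deposited table). Inhbb, the beta B subunit that forms activin B as a dimer and inhibin B with the alpha subunit, was at 3.86 units in CI-994 and 2.31 units in VEH. This was 1.68-fold higher (log2 ratio 0.74; p = 0.0117 in the authors' deposited table). The log2 ratios of these 2 ligands differed by 0.06.

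Grem1, a secreted antagonist of the DAN family that traps BMP dimers, was lower and had the largest ratio of the 6 genes. It was at 0.548 units in CI-994 hippocampi and at 2.22 units in VEH hippocampi, 4.05-fold lower (log2 ratio -2.02; p = 0.00368 in the authors' deposited table). Counted from the most lowered gene of the table, Grem1 stood in place 5 of 475. It was the 1 gene of the 6 with at least a 2-fold difference, and 7.16% of the table's genes were at least 2-fold lower in CI-994 and 16.8% at least 2-fold higher. It was also the 1 gene of the 6 with a value under 1 unit, in CI-994. The quotient of the Bmp6 value over the Grem1 value, in which any scaling by gene length cancels between groups, was 7.06-fold higher in CI-994 than in VEH (log2 difference 2.82). With a pseudocount of 1 unit Grem1 was 2.08-fold lower (log2 ratio -1.06) and this quotient 3.24-fold higher (log2 difference 1.70), so the size of both depends on the low Grem1 values. No error could be given for the quotient.

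Smad3, one of the transcription factors that carry activin and TGF-beta signals to the nucleus, was lower. It was at 12.7 units in CI-994 and at 19.2 units in VEH hippocampi (1.52-fold lower, log2 ratio -0.60). It had the smallest ratio of the 6 genes and also the smallest p, 0.000278 in the authors' deposited table, place 95 of 475. The activin subunit Inhbb was higher and Smad3 lower in the same comparison of group values. Whether both differed in the same mice cannot be seen from these values.

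The Wnt genes were split between ligand and antagonist. Wnt9a, a Wnt ligand known from the formation of joints in the embryo, was at 1.73 units in CI-994 hippocampi and at 2.99 units in VEH hippocampi (1.73-fold lower, log2 ratio -0.79; p = 0.0317 in the authors' deposited table). Sfrp1, a secreted Frizzled-related protein that binds Wnts and keeps them from their receptors, was at 2.70 units in CI-994 and at 1.41 units in VEH. It was 1.91-fold higher (log2 ratio 0.93; p = 0.00623 in the authors' deposited table), in place 84 counted from the most raised gene. The quotient of Wnt9a over Sfrp1 was 3.31-fold lower in CI-994 (log2 difference -1.73; 2.24-fold lower with a pseudocount of 1), again without an error. In the pair of Bmp6 and Grem1 the ligand was higher and the antagonist lower, and in the pair of Wnt9a and Sfrp1 the ligand was lower and the antagonist higher.

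**Figure D1:**
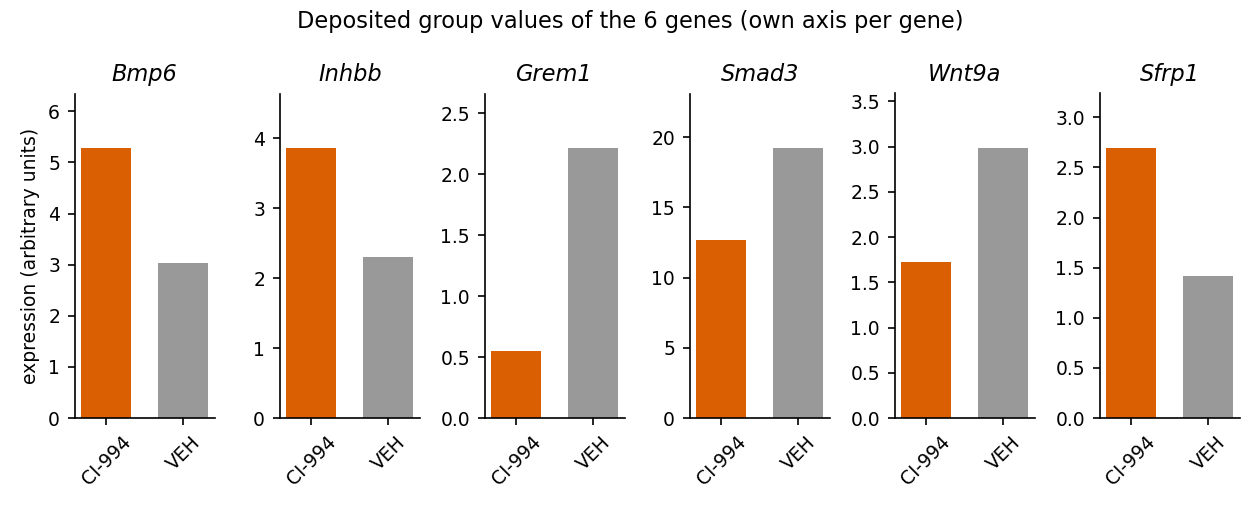
Deposited expression value of each of the 6 genes in arbitrary units (y axes start at 0 and differ between genes), with CI-994 (3 mice) in orange on the left and VEH (3 mice) in grey on the right of each panel. Bars are single authors' values with no error; Bmp6, Inhbb and Sfrp1 are higher in CI-994, and Grem1, at 0.548 against 2.22 units, Smad3 and Wnt9a are lower.

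Of the 6 genes, 3 had a p up to 0.01 in the authors' deposited table, as did 49.7% of its genes, and 1, Smad3, had a p up to 0.001, as did 25.9%. These p-values are the one measure here that can carry the spread between mice. If each p came from a two-sided normal test of the log2 ratio, which the sources used here do not state, the ratio of Smad3 would have a standard error of 0.17 and a 95% interval from -0.93 to -0.28. Under the same assumption Grem1 would have a standard error of 0.69 and an interval from -3.38 to -0.66. The Grem1 ratio is thus the largest and the least precise of the 6. The intervals of Bmp6 (0.14 to 1.47), Inhbb (0.17 to 1.32) and Sfrp1 (0.26 to 1.60) overlap over most of their length, so these increases could not be ranked. That of Wnt9a (-1.51 to -0.07) came closest to 0.

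**Figure D2:**
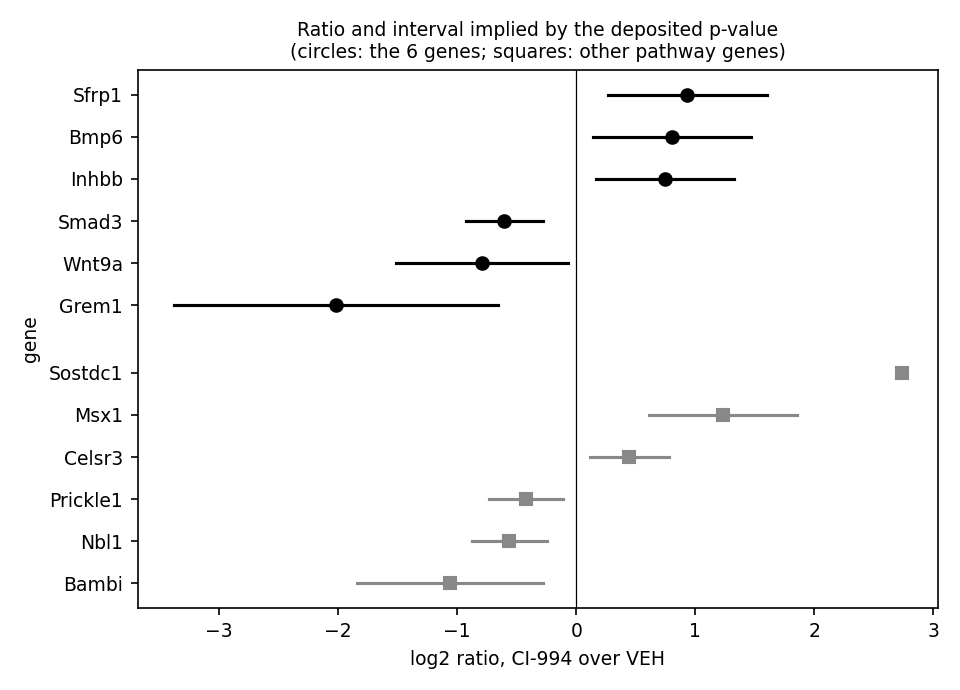
Log2 ratio of CI-994 over VEH (x axis) for the 6 genes (circles) and for the 6 other genes of the pathway lists in the table (squares), with lines for the 95% interval that the deposited p implies under a normal test. Sostdc1 has no line because its p is given as 0; the Grem1 line is the longest, from -3.38 to -0.66, and the Smad3 line runs from -0.93 to -0.28.

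Among genes of the table with a like VEH level, 4 of the 6 genes had an absolute log2 ratio below the median. The other 2, Grem1 and Smad3, were above it. Level was matched by the VEH value alone. All these genes had p under 0.05, so unlisted genes of like level are not part of the comparison. Among the 60 genes of the table whose VEH value lay within 0.5 log2 units of that of Grem1, itself included, the median absolute log2 ratio was 1.07, and 6 were at least as far from 0 as Grem1. For Smad3 the median of 67 such genes was 0.47, and 18 were at least as far from 0. Bmp6 (44 of 80), Inhbb (46 of 60), Wnt9a (45 of 78) and Sfrp1 (23 of 34) were all exceeded or equalled by more genes of like level than not, themselves included. The absolute log2 ratio had a median of 0.80 over the 6 genes and of 0.62 over the table.

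**Figure D3:**
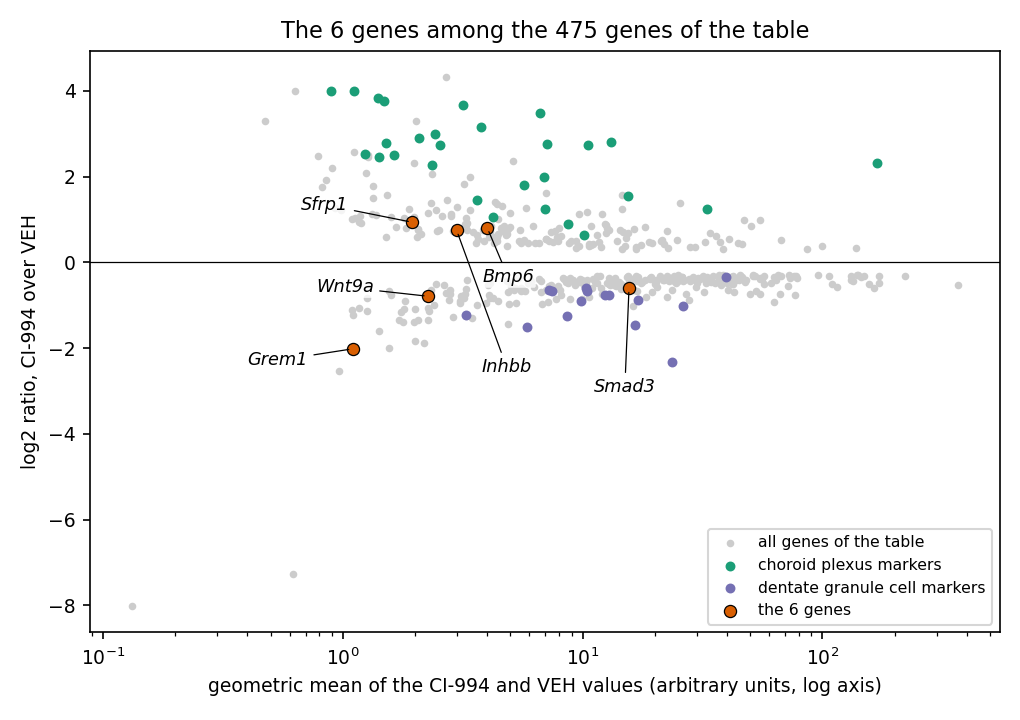
Log2 ratio of CI-994 over VEH (y axis) against the geometric mean of both group values in arbitrary units (x axis, log scale) for all 475 genes (grey), with choroid plexus markers in green, dentate granule cell markers in violet and the 6 genes in orange. Grem1 lies at -2.02 near the low end of the x axis, while the other 5 lie between -0.79 and 0.93 among genes of like level; the 28 choroid plexus markers are all above 0 and the 15 dentate markers all below.

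Other genes of these pathways were taken from lists of 187 symbols in all, of which 12 were in the table, 6 higher and 6 lower in CI-994. The 6 genes above are among these 12, and a gene had to have p under 0.05 to be listed. The number of genes tested is not given, so the share of all tested genes that reached the table is unknown. Nothing is therefore read from how many genes of a list were in the table. Receptors were represented by 0 of 19 BMP, activin and TGF-beta receptor symbols and 0 of 23 Wnt receptor and R-spondin symbols. The ligand lists gave 2 of 33 for the superfamily and 1 of 22 for Wnts, which are the ligands already described. The Smad list gave 1 of 15, the target list 1 of 10, the Wnt antagonist list 1 of 18 and the list of further Wnt pathway and polarity genes 2 of 31.

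Among the pathway lists, extracellular and membrane antagonists of BMPs had the most entries, 4 of 16, with 3 lower and 1 higher in CI-994. Over all 475 genes 58.1% were lower, so nothing is read from this split. Nothing is read from the 4 of 16 either, since the share of all tested genes in the table is unknown. The 4 include Grem1, which was selected by symbol, and the lists were chosen with earlier results of these data known. Nbl1, a DAN family relative of Grem1, was at 59.2 units in CI-994 and at 87.4 units in VEH (log2 ratio -0.56; p = 0.000481 in the authors' deposited table). Bambi, a pseudoreceptor without a kinase that blunts BMP and TGF-beta signals, was at 0.811 units in CI-994 and at 1.69 units in VEH (log2 ratio -1.06; p = 0.00789 in the authors' deposited table). Grem1, Nbl1 and Bambi were thus all lower. Sostdc1, a secreted protein that antagonises BMPs and modulates Wnts, was far higher, at 27.2 units in CI-994 and 4.08 units in VEH (log2 ratio 2.73; p given as 0 in the authors' deposited table). The quotient of Bmp6 over Sostdc1 was 3.81-fold lower in CI-994, so the quotients of Bmp6 over Grem1 and over Sostdc1 differed in opposite directions. Both are quotients of RNA values of bulk tissue, and no protein or signalling was measured.

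Msx1, a homeobox gene induced by BMPs in the embryo, was higher, at 10.7 units in CI-994 and 4.57 units in VEH (log2 ratio 1.23; p = 9.98e-05 in the authors' deposited table). Sostdc1 and Msx1 are also markers of the choroid plexus, which makes cerebrospinal fluid. Of the planar polarity genes, Celsr3, an atypical cadherin, was at 6.47 units in CI-994 and 4.75 units in VEH (log2 ratio 0.45). Prickle1, a cytoplasmic polarity protein, was at 21.6 units in CI-994 and 29.0 units in VEH (log2 ratio -0.42).

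Markers of other cells moved with the groups. The table held 28 of 30 symbols listed as choroid plexus markers, and each of the 28 was higher in CI-994. Over all 475 genes, 41.9% were higher and 58.1% lower. The marker lists were chosen with earlier results of these data known, so counts from them were not tested against these shares. The 28 choroid plexus markers had a summed level of 708 units in CI-994 and 160 units in VEH and a median log2 ratio of 2.63. None of these 28 was at 0 in either group, and Tmem72 (4.00) and Slc4a5 (3.99) had the largest log2 ratios. Their log2 ratios ran from 0.63 to 4.00, and those of Sfrp1 (0.93), Bmp6 (0.80) and Inhbb (0.74) lay in the lower part of that range; the part of choroid plexus tissue in their values was not tested. Of 20 dentate granule cell markers the table held 15, each of them lower, with a summed level of 153 units in CI-994 and 304 units in VEH and a median log2 ratio of -0.87, led by C1ql2 (-2.32) and Pdyn (-1.51). Pyramidal cell markers gave 7 of 18, all lower, with a summed level of 251 units in CI-994 and 387 units in VEH and with Cacng5 (-1.44) and Iyd (-0.96) furthest from 0. The log2 ratios of Grem1 (-2.02), Wnt9a (-0.79) and Smad3 (-0.60) lay within the range of the dentate markers (-2.32 to -0.35). The median of the whole table was -0.34, so this range also holds most of the table's lowered genes. Of the dentate markers only C1ql2 was lowered further than Grem1. The part of neuron numbers in the values of these genes was not tested.

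Meningeal markers gave 5 of 18, of which 4 were lower and 1 higher, with a summed level of 355 units in CI-994 and 471 units in VEH. Most of this sum was Ptgds, at 307 units in CI-994 and 443 units in VEH, so its direction is that of Ptgds. The 1 higher marker, Igf2, was at 41.1 units in CI-994 and 15.8 units in VEH. Igf2 (1.38) and Aldh1a2 (-1.15) had the largest ratios. The Cajal-Retzius markers Calb2 (-0.52) and Reln (-0.39), 2 of 7, were lower. One marker was listed for the oligodendrocyte lineage (Hapln2, 0.72), 1 for endothelium (Vwf, -0.51) and 1 for astrocytes (Aqp4, -0.34), and microglia were represented by 0 of 9 markers. Xist was at 25.3 units in CI-994 and 8.46 units in VEH. Ddx3y was at 0.0503 units in CI-994 and 7.73 units in VEH. Uty was at 0.00821 units in CI-994 and 2.12 units in VEH. The CI-994 values thus held Xist with hardly any Y-linked transcript, while the VEH values held both. X- and Y-linked transcripts tied to sex differed between the groups in this way. Sex and treatment therefore cannot be told apart in these group values, also for genes on autosomes such as the 6, and the part of sex in the values of the 6 genes was not tested.

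The genes of the table closest to each of the 6 in the plane of log2 CI-994 and log2 VEH values were found by Euclidean distance over these 2 group values. For Bmp6 they were Rgl2 (0.08) and Ankrd57 (0.08), for Inhbb Wbscr27 (0.07) and Hfe (0.19), and for Sfrp1 6720401G13Rik (0.09) and A330021E22Rik (0.16). For Smad3 they were Cebpb (0.05) and Olfml3 (0.11), and for Wnt9a Elk3 (0.11) and 9930013L23Rik (0.19). Grem1 had no gene as near, with Ctxn3 at 0.46 and Htra4 at 0.56. With 2 values per gene, such likeness is one of level and ratio alone.

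On the chromosomes (mm9) the nearest other gene of the table lay between 147 and 4926 kb away. Bmp6 was 147 kb from Dsp, a desmosomal gene of dentate granule cells with a log2 ratio of -1.26, and Inhbb was 918 kb from C1ql2. Sfrp1 was 220 kb from Zmat4 (-0.38), and Smad3 was 771 kb from the choroid plexus marker Calml4 (1.80). Wnt9a was 615 kb from Rasd1 (-0.45), and Grem1 was 4926 kb from Gm1337 (-0.47). The directions were opposite in 4 of these 6 pairs, and since 41.9% of the table was higher and 58.1% lower in CI-994, nothing is read from that count.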

How the data were processed

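Hippocampal RNA of 3 CI-994 and 3 VEH mice was sequenced. Per the submitters' processing notes, TopHat and Cuffdiff were used with genome build mm9; for these tools no version, gene annotation, scaling, strand setting or filter is given in the sources used here. The deposited table gives, per the file headers, 1 expression signal in arbitrary units per group, a log2 fold change and a p-value for each of 475 genes. The authors had combined the 3 libraries of a group, so depth and spread between mice are unknown. The deposited log2 column is headed CI-994 against VEH, yet in 475 of 475 genes it equals the log2 of VEH over CI-994 within 0.0001. The labels of the group values thus set the directions. If instead the group labels were exchanged, every direction would turn around.

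The authors' p-value, which its header does not call adjusted and which reaches 0.05 at most, is copied as theirs. The log2 ratio of CI-994 over VEH was computed without a pseudocount in Python 3.11.15 with numpy 2.4.6, pandas 2.3.3 and scipy 1.17.1, and plots were drawn with matplotlib 3.10.9. A standard error was derived from p and the ratio as if the test were normal. Benjamini-Hochberg adjustment was computed for assumed numbers of tested genes. Both computations were checked on simulated p-values from a normal test, which does not show how the authors' p-values arose. The 6 genes, the pathway and marker lists and the promoter letters were chosen with earlier results of these data known, so no set test was made. Named genes were the 6, all other listed pathway genes in the table, the 2 nearest genes of each in level, the 2 markers of each list with the largest ratio, and Xist, Ddx3y and Uty. The nearest genes on the chromosomes and those under Other observations were chosen later, as were the standard errors and the comparison with genes of like level. Promoter windows are those of RefSeq on GRCm38.p6; gene types and overlaps come from GENCODE M21 by symbol.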

Additional observations from a re-analysis of the deposited data

How the results depend on the processing

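Read by the header of the deposited log2 column, every direction turns by construction, to -0.80 for Bmp6, -0.74 for Inhbb, -0.93 for Sfrp1, 2.02 for Grem1, 0.60 for Smad3 and 0.79 for Wnt9a. A pseudocount of 0.1 or 1 kept the direction of all 6 genes. With a pseudocount of 1 the log2 ratio of Grem1 was -1.06, since its CI-994 value is below 1 unit, and the other 5 moved by less than their implied standard error. In the same setting, added after the data were seen for the quotients, the log2 difference was 1.70 for Bmp6 over Grem1, -1.17 for Wnt9a over Sfrp1 and -1.83 for Bmp6 over Sostdc1. Of the 6 genes, 3 had p up to 0.01 (49.7% of the table), namely Smad3, Grem1 and Sfrp1, and 1, Smad3, had p up to 0.001 (25.9% of the table). If 10000 or 15000 genes had been tested, Benjamini-Hochberg adjustment would leave 1 of the 6, Smad3, and with 20000 it would leave 0. The adjusted p of Smad3 was 0.0292, 0.0439 and 0.0585, and those of the other 5 were at least 0.215. The 12 pathway genes became 9 at p up to 0.01, and 10 with at least 1 unit in both groups, with a log2 ratio at or beyond 0.5 in size, or without choroid plexus markers. No paired analysis was possible because the table has 1 value per group; leaving out single mice was not run for the same reason.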

Other observations

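Further genes for proteins that bind BMPs or Wnts at the cell surface, or alter that binding, were in the table but on none of the lists, and they were chosen after their values were seen. Sulf1, a sulfatase that edits heparan sulfate and thereby the binding of Wnts and BMP antagonists to the cell surface, was at 6.74 units in CI-994 and at 1.70 units in VEH hippocampi (log2 ratio 1.98; p = 3.8e-11 in the authors' deposited table). It is also expressed in the choroid plexus. Crim1, a membrane protein that binds BMPs, was at 24.3 units in CI-994 and 32.0 units in VEH (log2 ratio -0.40; p = 0.00717 in the authors' deposited table). Gpc4, a glypican whose heparan sulfate chains hold such ligands, was at 12.04 units in CI-994 and 17.8 units in VEH (log2 ratio -0.57; p = 0.00678 in the authors' deposited table). It is X-linked, and Xist differed between the groups.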
